A study of Homo sapiens with 9 samples.

Results

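The genes described here are the enzymes of cholesterol and fatty acid synthesis together with the regulators that control them, a set known as targets of the sterol regulatory element-binding proteins (SREBPs). The set is a list of 40 gene symbols of these pathways, and a gene's probe sets were found by its symbol. Earlier results of these data were known when it was chosen, so its shares of changed genes are a description. Of the 40 genes, 33 had values, on 60 probe sets, among the 9453 genes with values. For testing, a gene had to lie above log2 7.96 on at least 3 of the 9 arrays, which 32 of the 40 did, among 7011 genes in all. Every difference below is over those 32 genes unless stated.

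RNA came from HT1080 cells, an established human fibrosarcoma line, grown in DMEM and measured on 9 Affymetrix arrays. Group 1 (MTAP-, 3 arrays) is negative for methylthioadenosine phosphorylase (MTAP), the enzyme that cleaves methylthioadenosine in methionine and adenine salvage, and was not treated. Group 2 (MTAP+, 3 arrays) is positive for the enzyme and untreated. Group 3 (MTAP+ inhibitor, 3 arrays) is the MTAP+ cells given 10 µM MT-DADMe-ImmA, a tight-binding inhibitor of MTAP, during the last 48 hours before harvest. The sources used here do not say how the MTAP+ cells were derived, whether they are a clone, or whether the other groups received vehicle. The series describes the 3 arrays of a group as biological replicates.

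SREBPs are made as precursors anchored in the endoplasmic reticulum, where SCAP binds them and INSIG proteins hold the complex back while sterols are plentiful. When sterols are scarce the complex moves to the Golgi, the precursor is cut, and the freed part enters the nucleus and switches on genes that carry sterol regulatory elements. The protein of SREBF2 acts mostly on cholesterol synthesis and that of SREBF1 mostly on fatty acid synthesis, and INSIG1 is itself a target that closes the loop.

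The MTAP transcript followed the labels, at 4.56 ± 0.41 in MTAP- cells, 11.58 ± 0.19 in MTAP+ cells and 11.2 ± 0.1 with inhibitor (log2, SD, n = 3). RNA quality differed between arrays. For the ACTB control, the log2 value of the 5' probe set less that of the 3' probe set, a difference that falls when RNA is shortened, was -1.81, -2.17 and -3.52 on MTAP- arrays 1 to 3, -1.33, -1.03 and -1.92 on MTAP+ arrays, and -1.93, -0.88 and -2.09 on inhibitor arrays. Of 15 fibroblast and mesenchymal markers, 7 had values and 5 were tested. VIM stayed between 13.82 and 14.07 on all arrays, while FN1 was 10.81 ± 0.18, 12.15 ± 0.28 and 12.38 ± 0.12, COL6A1 9.26 ± 0.09, 10.04 ± 0.12 and 9.97 ± 0.06, and COL6A2 7.3 ± 0.86, 8.62 ± 0.36 and 8.95 ± 0.08 in MTAP-, MTAP+ and inhibitor-treated cells. These 3 were higher in MTAP+ than in MTAP- cells (limma). COL6A2 did not pass without MTAP+ replicate 1 (limma adjusted p = 0.064) or 3 (0.0847). It also missed the threshold with the ACTB difference as a covariate (0.86, adjusted p = 0.211) and with only the 2 groups fitted (0.0603). CD44 was lower with inhibitor by -0.35 (limma adjusted p = 0.035, passing in 10 of 19 alternatives, with a range of 0.00958 to 0.146). Of 8 epithelial and 6 liver markers 0 had values. Of 8 blood markers only LYZ had values, at 4.89 ± 0.06, 7.35 ± 0.51 and 5.68 ± 0.05, and of 7 adipocyte markers only FABP4, at 5.25 ± 0.22, 6.67 ± 0.81 and 7.46 ± 0.21 in the same order, both below the testing filter on every array. The part of what these markers measure in the results was not tested.

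With the inhibitor, cholesterol synthesis genes were higher than in untreated MTAP+ cells along most of the pathway, from HMGCS1 and IDI1 to SQLE, MSMO1 and DHCR7. INSIG1 and SREBF2 rose with them, as did SCD, ELOVL5, ACSL1 and LPIN1 among the genes of fatty acid handling. Of the 32 genes, 15 were higher and 0 lower (limma, Benjamini-Hochberg adjusted p below 0.05), which is 46.9% against 6.36% higher and 8.50% lower over the 7010 genes counted, MTAP itself being left out. At an unadjusted p below 0.05 in limma, 22 were higher and 0 lower, and with array weights, the other form of the test, 21 were higher and 1, SREBF1, lower. The median log2 difference was 0.47 over the 32 genes and -0.02 over all genes, and 29 of the 32 differences were above 0. Without inhibitor replicate 1 or 3 the count of higher genes was 9, and with the replicate number as a block it was 20. In bulk RNA, more transcript per cell and more cells with the transcript cannot be told apart.

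Counts and medians were also taken by arm of the pathway. Among 14 sterol enzymes 9 were higher, with a median difference of 0.71 and a range from -0.21 to 1.27. Among 11 enzymes of fatty acid and glycerolipid synthesis 4 were higher, with a median of 0.34, and all 11 differences were above 0. Among 7 regulators and transport proteins 2 were higher, with a median of 0.46. Whether the arms differ was not tested.

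**Figure D1:**
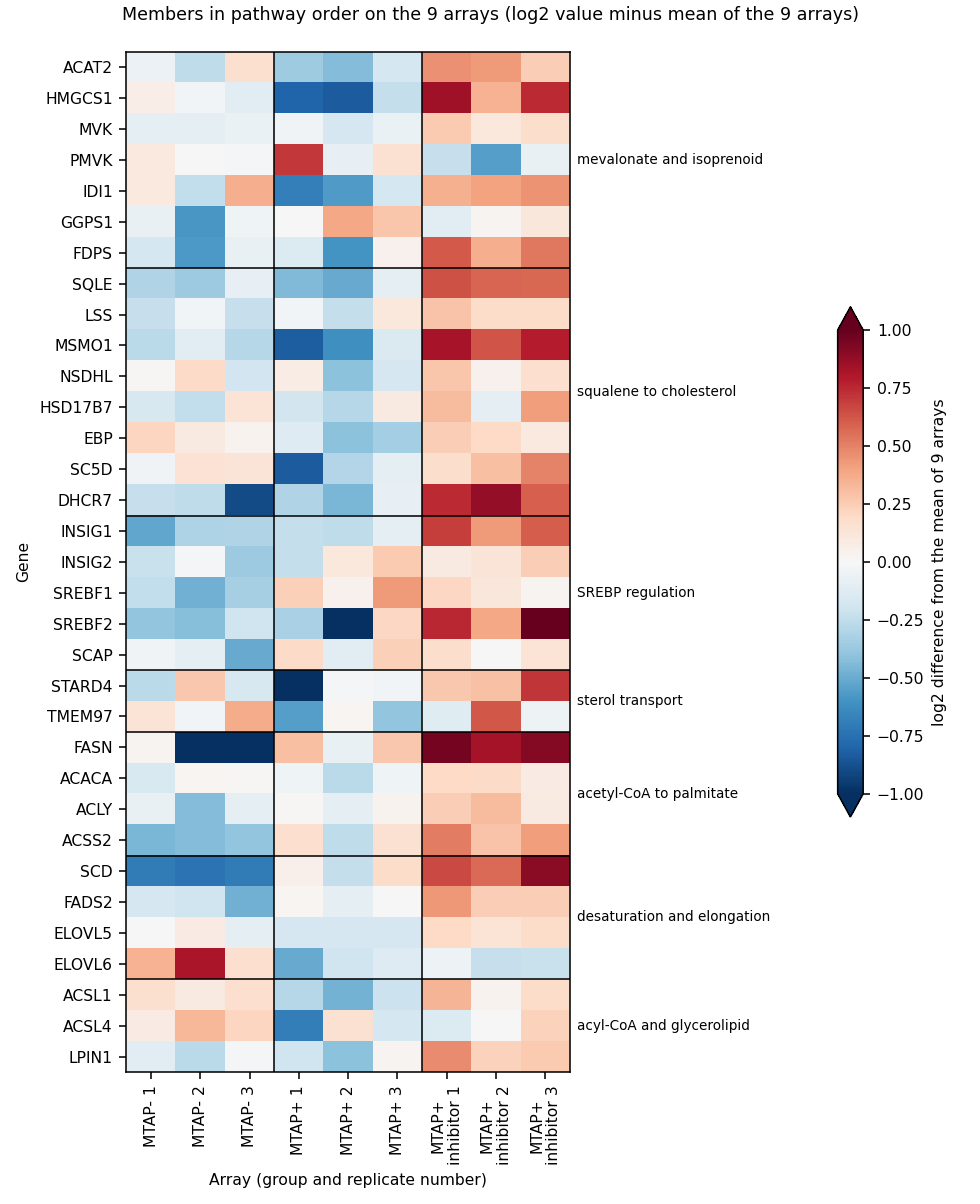
Heat map of the 33 genes with values (rows, in pathway order) on the 9 arrays (columns, by group and replicate), coloured by the log2 value minus the mean of the 9 arrays, with colours ending at 1 in either direction. The inhibitor columns are red for most sterol genes, HMGCS1 and MSMO1 among them, while SCD and SREBF1 are blue on the MTAP- arrays and ELOVL6 is red there.

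The 3 genes with the largest rises were MSMO1 (2.42-fold), HMGCS1 (2.41-fold) and SREBF2 (2.13-fold), and their promoters are shown because they are the regions on which SREBPs and their partner NF-Y act. Each is the 250 bases before the RefSeq start of the gene in GRCh38.p14, 5′ to 3′ on the strand of the gene. HMGCS1 lies on the minus strand (chr5:43313413-43313662), MSMO1 on the plus strand (chr4:165327419-165327668) and SREBF2 on the plus strand (chr22:41832855-41833104). Capitals mark matches on either strand to the sterol element TCACNCCAC and to the NF-Y box CCAAT, which reads ATTGG on the other strand.
HMGCS1: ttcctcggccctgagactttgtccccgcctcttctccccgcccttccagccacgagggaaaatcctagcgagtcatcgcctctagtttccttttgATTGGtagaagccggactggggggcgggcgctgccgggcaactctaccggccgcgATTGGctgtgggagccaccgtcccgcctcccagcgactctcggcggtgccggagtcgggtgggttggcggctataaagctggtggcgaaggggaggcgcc
MSMO1: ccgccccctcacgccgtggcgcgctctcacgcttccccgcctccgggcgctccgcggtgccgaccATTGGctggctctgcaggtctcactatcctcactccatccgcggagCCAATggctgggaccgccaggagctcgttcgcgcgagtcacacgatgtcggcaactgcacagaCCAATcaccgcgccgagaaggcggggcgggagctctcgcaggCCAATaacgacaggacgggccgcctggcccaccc
SREBF2: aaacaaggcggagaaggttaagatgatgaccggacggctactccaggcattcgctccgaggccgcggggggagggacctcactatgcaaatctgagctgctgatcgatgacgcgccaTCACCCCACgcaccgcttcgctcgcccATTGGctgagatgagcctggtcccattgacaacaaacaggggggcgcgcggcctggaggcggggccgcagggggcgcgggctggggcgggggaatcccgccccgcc
HMGCS1 held 2 CCAAT boxes, MSMO1 held 4, and SREBF2 held 1 together with 1 sterol element. The sterol element of SREBF2 began 133 bases before the start and its CCAAT box 106 bases before. A match is a description of the letters and not a site shown to be bound.

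The same search covered the promoters of 29 of the 32 tested genes, 13 of them higher with inhibitor and 16 not. The sterol element TCACNCCAC, which overlaps neither other motif, was found in 2 of the 13, ACSL1 and SREBF2, and in 0 of the 16, against 1.09% of 27305 genes. The ACSL1 match lay before a start inside the gene (window from chr4:184805504), not before its outermost start at chr4:184826594. CCAAT was found in 12 of the 13, all but LPIN1, and in 10 of the 16, against 37% of genes. The E-box CACGTG was found in 3 of the 13, ELOVL5, INSIG1 and SC5D, and in 1 of the 16, SCAP, against 7.73% of genes. These shares were not tested.

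The first steps from acetyl-CoA to the isoprenoids rose at 4 of 6 genes tested. HMGCS1, which makes HMG-CoA, lay at 8.39, 8.30 and 8.22 on the MTAP- arrays, at 7.52, 7.49 and 8.09 on the MTAP+ arrays and at 9.17, 8.67 and 9.07 with inhibitor. The 3 groups did not overlap: every inhibitor array was above every other array, and every MTAP+ array below every MTAP- array. The inhibitor difference from MTAP+ cells was 1.27 ± 0.18 (log2, SE, limma adjusted p = 0.00223, n = 3 per group), and it passed under every alternative run. ACAT2, the cytosolic thiolase that condenses acetyl-CoA, lay at 9.77, 9.57 and 9.99 in MTAP- cells, 9.47, 9.39 and 9.65 in MTAP+ cells and 10.28, 10.25 and 10.07 with inhibitor. Its inhibitor values exceeded all others, and the difference from MTAP+ cells was 0.70 ± 0.13 (adjusted p = 0.0066), kept under every alternative. IDI1, which isomerises isopentenyl pyrophosphate, lay at 9.89, 9.55 and 10.16, then 9.11, 9.23 and 9.62, then 10.15, 10.20 and 10.24 in the same order of groups. It was 0.88 ± 0.17 above MTAP+ cells (adjusted p = 0.00782), again under every alternative, while the inhibitor arrays overlapped the MTAP- arrays.

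FDPS, which makes farnesyl pyrophosphate, stood at 10.12, 9.72 and 10.22 in MTAP- cells, 10.16, 9.70 and 10.34 in MTAP+ cells and 10.91, 10.66 and 10.82 with inhibitor. The inhibitor arrays were the highest 3, and the untreated groups overlapped. The difference from MTAP+ cells was 0.73 ± 0.18 (limma adjusted p = 0.0222), and it missed the threshold without inhibitor replicate 1 (0.0737) or 3 (0.0828), with a range of 0.00224 to 0.0828 over the alternatives. MVK, mevalonate kinase, differed by 0.27 ± 0.09 (adjusted p = 0.0709), on arrays from 8.12 to 8.25 against 8.39 to 8.55. It passed in 3 of 18 alternatives, with the replicate block (0.0499), with array weights (0.0264) and with probe sets averaged (0.36, adjusted p = 0.0186). GGPS1, which extends farnesyl to geranylgeranyl pyrophosphate, differed by -0.21 ± 0.16 (adjusted p = 0.399), the lowest difference of the 32. PMVK, phosphomevalonate kinase, lay below the testing filter, between 6.24 and 7.50.

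From squalene to cholesterol, 5 of 8 genes tested were higher with inhibitor. MSMO1, the sterol C4-methyl oxidase, read 9.69, 9.85 and 9.68 in MTAP- cells, 9.14, 9.35 and 9.82 in MTAP+ cells and 10.79, 10.59 and 10.75 with inhibitor. All inhibitor arrays were above all others, whereas the untreated groups overlapped through MTAP+ replicate 3. The difference from MTAP+ cells was 1.27 ± 0.16 (limma adjusted p = 0.00155). SQLE, squalene epoxidase, an oxygen-requiring control point of the pathway, read 9.47, 9.41 and 9.69, then 9.33, 9.27 and 9.68, then 10.41, 10.36 and 10.35. Its inhibitor arrays spanned less than 0.1 and stood apart from both untreated groups, by 0.95 ± 0.13 from MTAP+ cells (adjusted p = 0.0019). DHCR7, which makes cholesterol from 7-dehydrocholesterol, read 8.58, 8.56 and 7.92, then 8.51, 8.36 and 8.73, then 9.56, 9.69 and 9.41. MTAP- replicate 3, the array with the lowest ACTB difference, was its lowest, and the inhibitor difference from MTAP+ cells was 1.02 ± 0.18 (adjusted p = 0.00599). The calls of MSMO1, SQLE and DHCR7 held under every alternative run.

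SC5D and EBP, a desaturase and an isomerase of the sterol ring, moved less. SC5D read 9.12, 9.30 and 9.28 in MTAP- cells, 8.32, 8.86 and 9.06 in MTAP+ cells and 9.33, 9.45 and 9.65 with inhibitor. The groups did not overlap, MTAP+ being lowest, and the inhibitor difference from MTAP+ cells was 0.73 ± 0.17 (limma adjusted p = 0.0197), lost without inhibitor replicate 2 (0.0544) or 3 (0.0932), with a range of 0.00374 to 0.0932. EBP read 9.09, 8.96 and 8.91, then 8.74, 8.46 and 8.53, then 9.12, 9.07 and 8.97. Inhibitor and MTAP- arrays overlapped and both were above MTAP+ arrays. Its inhibitor difference from MTAP+ cells was 0.48 ± 0.11 (adjusted p = 0.0151), lost without inhibitor replicate 1 (0.0593) or 2 (0.0537) and with probe sets averaged (0.172), with a range of 0.00228 to 0.172. LSS, which closes the sterol rings, differed by 0.27 ± 0.11 (adjusted p = 0.129), NSDHL, a C4-demethylating dehydrogenase, by 0.34 ± 0.14 (adjusted p = 0.141), and HSD17B7, a reductase of the same complex, by 0.34 ± 0.16 (adjusted p = 0.187). With the replicate block HSD17B7 passed (adjusted p = 0.033).

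Of 5 regulators of SREBP processing, 2 were higher with inhibitor. INSIG1, the sterol-dependent anchor of SCAP, lay at 9.31, 9.52 and 9.53 in MTAP- cells, 9.59, 9.58 and 9.73 in MTAP+ cells and 10.52, 10.26 and 10.44 with inhibitor. No inhibitor array overlapped an untreated one, and the difference from MTAP+ cells was 0.77 ± 0.11 (limma adjusted p = 0.00223), kept under every alternative. SREBF2 lay at 8.91, 8.88 and 9.11, then 8.98, 8.30 and 9.51, then 10.06, 9.69 and 10.31. The MTAP+ arrays spread more widely than the others, with replicate 3 high and replicate 2 low, and all inhibitor arrays were above them. The difference was 1.09 ± 0.26 (adjusted p = 0.021), lost without inhibitor replicate 1 (0.0617) or 3 (0.0975) and with only these groups fitted (0.0502), with a range of 0.00226 to 0.0975.

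SREBF1 lay at 7.54, 7.30 and 7.45 in MTAP- cells, 8.02, 7.83 and 8.21 in MTAP+ cells and 7.99, 7.90 and 7.81 with inhibitor. The inhibitor and MTAP+ arrays overlapped, at a difference of -0.12 ± 0.12 (limma adjusted p = 0.543). Array weights gave -0.28 with an adjusted p of 0.0478. SCAP, the escort protein, differed by 0.00 ± 0.14 (adjusted p = 0.995) and INSIG2, the second INSIG, by 0.12 ± 0.14 (adjusted p = 0.624). STARD4, a soluble sterol carrier, read 7.96, 9.02 and 9.01 in MTAP+ cells and 9.31, 9.33 and 9.75 with inhibitor, 0.80 ± 0.27 higher (adjusted p = 0.0745, or 0.0208 with the replicate block). MTAP+ replicate 1 was its lowest array. TMEM97, a sterol-binding membrane protein, differed by 0.46 ± 0.21 (limma adjusted p = 0.172). It passed with its probe sets averaged, at 0.40 (adjusted p = 0.0144), and with array weights, at 0.50 (0.0492).

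**Figure D2:**
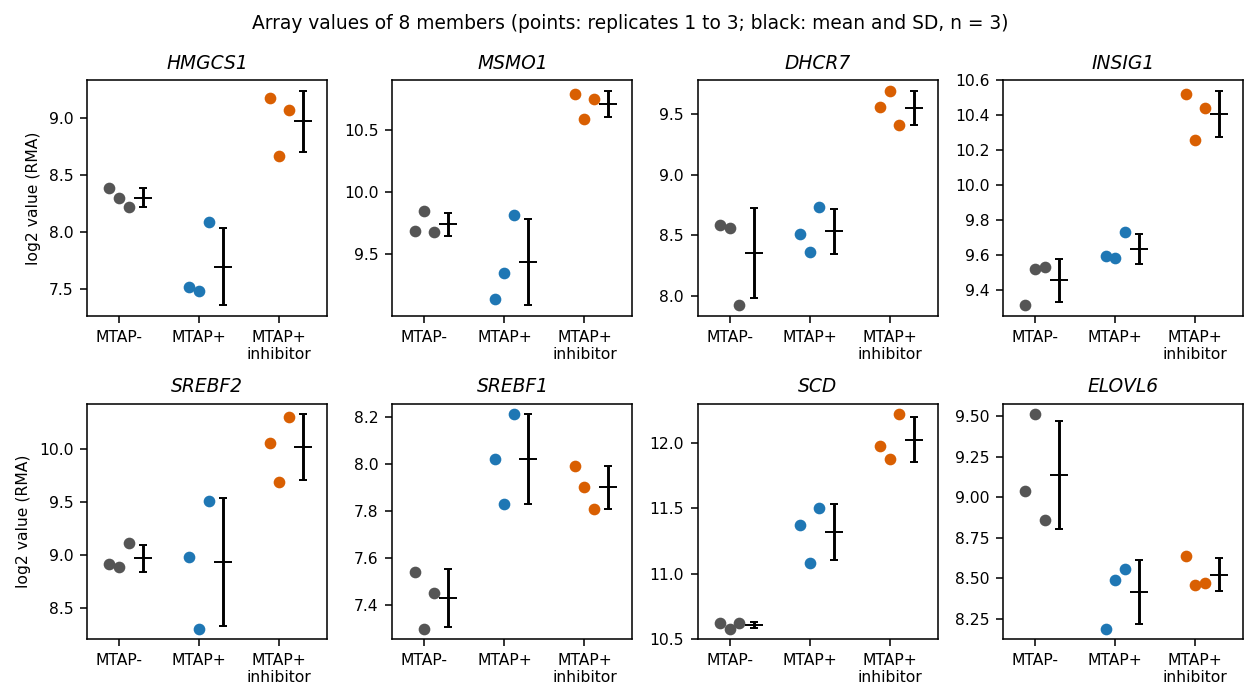
Log2 values of 8 genes on each array (points in replicate order 1 to 3, 1 panel per gene with its own axis, which does not start at 0), with the mean and SD of each group (n = 3) in black. HMGCS1, MSMO1, DHCR7, INSIG1 and SREBF2 are highest with inhibitor, SREBF1 is lowest in MTAP- cells, SCD steps up across the groups, and ELOVL6 is highest in MTAP- cells.

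Of 4 genes of desaturation and elongation, 2 were higher with inhibitor. SCD, the stearoyl-CoA desaturase that makes monounsaturated fatty acids, lay at 10.62, 10.58 and 10.62 in MTAP- cells, 11.37, 11.08 and 11.50 in MTAP+ cells and 11.98, 11.88 and 12.22 with inhibitor. The groups formed 3 steps with no overlap, and the inhibitor added 0.71 ± 0.13 to the MTAP+ level (limma adjusted p = 0.00658), under every alternative. ELOVL5, which elongates polyunsaturated chains, read 11.27, 11.35 and 11.18, then 11.10 on each MTAP+ array, then 11.47, 11.41 and 11.45. Its groups did not overlap, and the rise of 0.34 ± 0.09 (adjusted p = 0.0261) was lost without inhibitor replicate 1 (0.0846), 2 (0.0665) or 3 (0.0983) or MTAP+ replicate 1 (0.0617) or 3 (0.0568), with a range of 0.00453 to 0.0983. FADS2, the delta-6 desaturase, read 8.56, 8.44 and 8.54 in MTAP+ cells and 8.97, 8.78 and 8.78 with inhibitor, 0.33 ± 0.11 higher (adjusted p = 0.0709, or 0.0397 with the replicate block). ELOVL6, which elongates palmitate, differed by 0.11 ± 0.17 (adjusted p = 0.692).

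The genes from acetyl-CoA to palmitate did not pass in this comparison. FASN, the fatty acid synthase, was at 10.31, 9.94 and 10.28 in MTAP+ cells and at 10.97, 10.84 and 10.93 with inhibitor, so that the groups did not overlap. The difference was 0.74 ± 0.41 (limma adjusted p = 0.259), its SE being set by all 9 arrays, and with only these 2 groups fitted the adjusted p was 0.0135. ACSS2, which makes acetyl-CoA from acetate, was 0.38 ± 0.13 higher (adjusted p = 0.0681, or 0.0312 with the replicate block). ACLY, which makes it from citrate, was 0.24 ± 0.12 higher (adjusted p = 0.205), and ACACA, acetyl-CoA carboxylase, 0.27 ± 0.10 higher (adjusted p = 0.108).

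Among genes that activate fatty acids or build glycerolipids, ACSL1, a long-chain acyl-CoA synthetase, read 8.04, 7.97 and 8.05 in MTAP- cells, 7.60, 7.41 and 7.67 in MTAP+ cells and 8.22, 7.92 and 8.07 with inhibitor. The MTAP+ arrays were the lowest 3, all below the testing filter. The inhibitor difference was 0.51 ± 0.11 (limma adjusted p = 0.0129), lost without inhibitor replicate 1 (0.0538) or 3 (0.0568), with a range of 0.00531 to 0.0568. LPIN1, a phosphatidate phosphatase, read 8.54, 8.38 and 8.64, then 8.45, 8.24 and 8.68, then 9.12, 8.88 and 8.91. Its inhibitor arrays were above all others, by 0.51 ± 0.13 over MTAP+ cells (adjusted p = 0.0268). That call was lost without inhibitor replicate 1 (0.0923), 2 (0.0539) or 3 (0.0757), without MTAP+ replicate 1 (0.0622) or 2 (0.0626), and with probe sets averaged (0.182), with a range of 0.00993 to 0.182. ACSL4, which prefers arachidonate, differed by 0.26 ± 0.19 (adjusted p = 0.382).

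**Figure D3:**
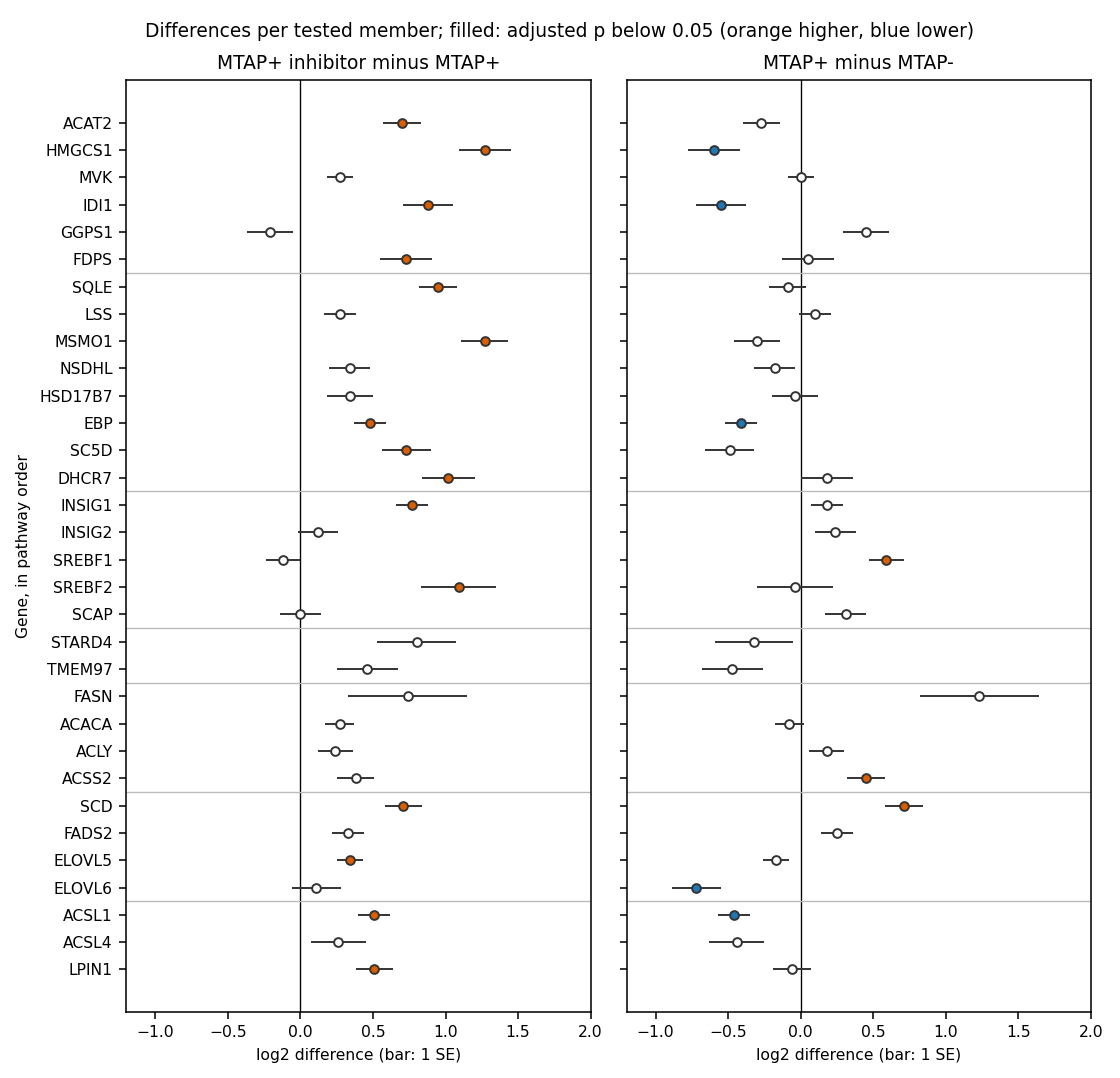
Log2 differences (points) with 1 SE (bars) of the 32 tested genes in pathway order, for the inhibitor minus MTAP+ cells (left) and MTAP+ minus MTAP- cells (right), orange where higher and blue where lower at an adjusted p below 0.05. The left panel holds 15 orange and 0 blue points, and the right panel 3 orange and 5 blue.

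The untreated MTAP+ and MTAP- cells differed in this set about as often as in all genes. MTAP+ cells were higher than MTAP- cells in SREBF1, SCD and ACSS2 and lower in HMGCS1, IDI1, EBP, ELOVL6 and ACSL1. That is 3 of 32 genes higher and 5 lower, against 11.7% higher and 7.36% lower over all genes, so 25% of the set changed against 19.1% of all genes. SREBF1 and ACSS2 lay below the testing filter on every MTAP- array, and ACSL1 on every MTAP+ array. Their selection for testing depended on the other groups. The median difference was -0.05 over the set and 0.01 over all genes. Of 14 sterol enzymes 0 were higher and 3 lower (limma). No sterol enzyme was higher at an unadjusted p below 0.05 other than GGPS1. Centring the arrays on their medians gave 2 higher and 6 lower genes of the set and turned the split over all genes from 820 higher and 516 lower (61.4% higher) to 602 and 784 (43.4%), and a further quantile normalisation gave 2 and 5 of the set and 638 and 675 over all genes (48.6%). The count of 8 changed genes was 5 without MTAP- replicate 1, MTAP- replicate 2 or inhibitor replicate 3, and 4 without MTAP- replicate 3. With the ACTB difference as a covariate it was 2, SREBF1 and SCD, and with the replicate block it was 11. Under the covariate the differences that no longer passed were -0.80 for ELOVL6, -0.47 for EBP, 0.58 for ACSS2, -0.43 for HMGCS1, -0.33 for IDI1 and -0.35 for ACSL1, so those of ELOVL6, EBP and ACSS2 were no smaller than without it. The part of RNA quality in this comparison was not tested beyond that covariate.

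SREBF1 was 0.59 ± 0.12 higher in MTAP+ than in MTAP- cells (limma adjusted p = 0.00844), with all MTAP- arrays below the testing filter and no overlap. SCD was 0.71 ± 0.13 higher (adjusted p = 0.00464). Both passed under every alternative. ACSS2, at 7.67, 7.69 and 7.73 in MTAP- cells, all below the testing filter, against 8.29, 7.87 and 8.28, did not overlap and was 0.45 ± 0.13 higher (adjusted p = 0.033). It passed in 8 of 18 alternatives, with a range of 0.00208 to 0.11. Among the arrays whose removal ended the call were MTAP+ replicates 1 (0.0927) and 3 (0.11), MTAP- replicates 1 (0.0793), 2 (0.0778) and 3 (0.072) and inhibitor replicate 3 (0.0544).

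Of the 5 lower genes, 3 were sterol enzymes. HMGCS1 was lower in MTAP+ cells by -0.60 ± 0.18 (limma adjusted p = 0.0392), and this passed in 8 of 18 alternatives, with a range of 0.0113 to 0.267. The call was lost on leaving out MTAP- replicate 1 (0.0973), 2 (0.0938) or 3 (0.0723), MTAP+ replicate 1 (0.105) or 2 (0.0847), or inhibitor replicate 3 (0.0583). IDI1 differed by -0.55 ± 0.17 (adjusted p = 0.0439), although MTAP- replicate 2 at 9.55 lay below MTAP+ replicate 3 at 9.62. It passed in 7 of 19 alternatives, with a range from 0.0123 to 0.851, the highest with probe sets averaged, and was lost without MTAP- replicate 1 (0.0947) or 3 (0.141), MTAP+ replicate 1 (0.121) or 2 (0.0809), or inhibitor replicate 1 (0.0624), 2 (0.0631) or 3 (0.0666). EBP differed by -0.41 ± 0.11 (adjusted p = 0.0241), lost without MTAP- replicate 1 (0.075) or 2 (0.0518) or MTAP+ replicate 3 (0.0764), with a range of 0.00434 to 0.119.

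ELOVL6 read 9.04, 9.51 and 8.86 in MTAP- cells, 8.19, 8.49 and 8.56 in MTAP+ cells and 8.64, 8.46 and 8.47 with inhibitor. It was highest in MTAP- cells, with MTAP- replicate 2 above the other arrays, and the other groups overlapped. The fall from MTAP- to MTAP+ cells was -0.72 ± 0.17 (limma adjusted p = 0.0147), and of the alternatives only the ACTB covariate ended it (0.0569), at a difference of -0.80. ACSL1 fell by -0.46 ± 0.11 (adjusted p = 0.0174), lost without MTAP- replicate 3 (0.0553) and with the ACTB covariate (0.156), with a range of 0.00698 to 0.156. Several further genes passed in only some fits. SC5D, at -0.49 ± 0.17 (adjusted p = 0.0724), passed with the replicate block (0.0163) and without MTAP+ replicate 3 (0.0392). ACSL4, at -0.44 ± 0.19 (adjusted p = 0.127), passed with the block (0.0442) and without MTAP+ replicate 2 (0.0243), MSMO1, at -0.30 ± 0.16 (adjusted p = 0.205), without MTAP+ replicate 3 (0.0323), and GGPS1, at 0.45 ± 0.16 (adjusted p = 0.0681), without MTAP+ replicate 1 (0.0491).

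FASN varied most between MTAP- arrays, which read 10.04, 8.97 and 7.82 in the order of their ACTB differences. MTAP- replicate 1 lay within the MTAP+ range of 9.94 to 10.31 and the other arrays below it. The MTAP+ difference was 1.23 ± 0.41 (limma adjusted p = 0.0628). It passed without MTAP- replicate 1, at 1.78 (adjusted p = 0.00407), and with the replicate block (adjusted p = 0.0317). It was 0.67 without MTAP- replicate 3 (adjusted p = 0.125) and 0.60 with the ACTB covariate (adjusted p = 0.438).

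**Figure D4:**
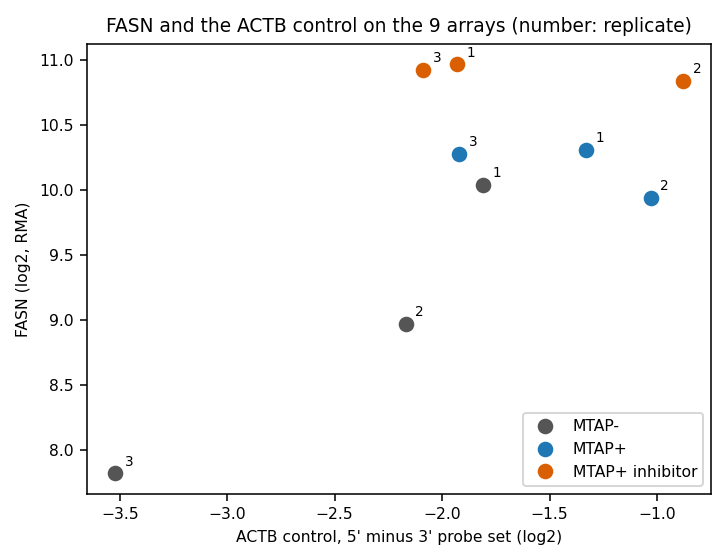
FASN (log2, vertical axis) against the ACTB control's 5' minus 3' difference (log2, horizontal axis) on the 9 arrays, coloured by group and numbered by replicate. MTAP- replicate 3 lies at -3.52 and 7.82, apart from the others, while the inhibitor arrays lie between 10.84 and 10.97 at ACTB differences from -2.09 to -0.88.

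Set against MTAP- cells, the inhibitor-treated cells were higher in 17 of the 32 genes and lower in 1, ELOVL6, against 19.3% higher and 18% lower and 37.3% changed in either direction over all genes. The median difference was 0.40 over the set and 0.00 over all genes. This comparison shares its inhibitor arrays with the first and its MTAP- arrays with the second, so it is given only beside them. INSIG1 was 0.95 ± 0.11 above MTAP- cells (limma adjusted p = 0.000151), DHCR7 1.20 ± 0.18, MSMO1 0.97 ± 0.16, SREBF2 1.05 ± 0.26, SQLE 0.85 ± 0.13 and FDPS 0.78 ± 0.18. A set of 10 genes, namely ACAT2, DHCR7, FDPS, HMGCS1, INSIG1, LPIN1, MSMO1, SCD, SQLE and SREBF2, were higher than in either untreated group by their brightest probe sets. Against MTAP- cells a dimmer probe set did not pass for SREBF2 (0.00, limma adjusted p over all probe sets = 0.99), SQLE (0.47, 0.222) and LPIN1 (0.23, 0.732). The remaining dimmer probe sets of these genes passed against MTAP- cells. The calls against each untreated group use the same inhibitor arrays, and the share of all genes with both calls was not counted. HMGCS1, ACSL1, EBP and IDI1 were called higher with inhibitor than in MTAP+ cells and lower in MTAP+ than in MTAP- cells. Both calls use the same 3 MTAP+ arrays, so they are not independent of each other. The share of all genes with this pair of calls was likewise not counted. Of these genes, ACSL1 (0.05 ± 0.11), EBP (0.07 ± 0.11) and IDI1 (0.33 ± 0.17) did not pass against MTAP- cells, whereas HMGCS1 did, at 0.66 ± 0.18 (adjusted p = 0.0145, lost without inhibitor replicate 1, 0.057, or 3, 0.0554, with a range of 0.00287 to 0.057).

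FASN, SCD, ACSS2, FADS2 and ACLY differed more from MTAP- cells than from MTAP+ cells by their estimates, a contrast that was not tested. FASN was 1.97 ± 0.41 above MTAP- cells (limma adjusted p = 0.0043), at 1.41 without MTAP- replicate 3 (adjusted p = 0.0038) and 1.46 with the ACTB covariate (adjusted p = 0.023). SCD was 1.41 ± 0.13 higher, a 2.67-fold difference. ACSS2 read 8.64, 8.41 and 8.54 with inhibitor, above both untreated groups and 0.83 ± 0.13 above MTAP- cells. FADS2 read 8.37, 8.34 and 8.06 in MTAP- cells, all below the inhibitor arrays, at a difference of 0.59 ± 0.11. SREBF1 was 0.47 ± 0.12 higher. SCD and FADS2 passed under all 19 alternatives, and ACSS2 and SREBF1 under the 18 run for them. All MTAP- arrays of ACSS2 and SREBF1 lay below the testing filter. SREBF1 lay above it on only 1 inhibitor array and 2 MTAP+ arrays, so its selection for testing depended on a group not compared here. ACLY read 11.59, 11.23 and 11.56 in MTAP- cells, 11.67, 11.56 and 11.70 in MTAP+ cells and 11.91, 11.98 and 11.75 with inhibitor, the highest 3 arrays. It was 0.42 ± 0.12 above MTAP- cells (adjusted p = 0.0185), lost without inhibitor replicate 1 (0.058) or 2 (0.07) or MTAP- replicate 2 (0.0549), with a range of 0.00606 to 0.07. ELOVL6 was lower by -0.61 ± 0.17 (adjusted p = 0.0158), lost without inhibitor replicate 2 (0.0509) or 3 (0.0549), with a range of 0.00646 to 0.0549.

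LPIN1, ACAT2, LSS and MVK also passed against MTAP- cells, each with calls lost when arrays were left out. LPIN1 was 0.45 ± 0.13 higher (limma adjusted p = 0.0214), lost without inhibitor replicate 1 (0.0831) or MTAP- replicate 2 (0.0737), with a range of 0.00806 to 0.348. ACAT2 was 0.43 ± 0.13 higher (adjusted p = 0.0228), lost without inhibitor replicate 1 (0.0781) or 2 (0.0712) or MTAP- replicate 1 (0.0573) or 2 (0.0784), with a range of 0.0125 to 0.0784. LSS read 9.20, 9.40 and 9.20 in MTAP- cells, 9.40, 9.19 and 9.53 in MTAP+ cells and 9.71, 9.61 and 9.61 with inhibitor, where it was highest. It was 0.37 ± 0.11 above MTAP- cells (adjusted p = 0.0229), lost on leaving out inhibitor replicate 1 (0.0787), 2 (0.0532) or 3 (0.0569) or MTAP- replicate 1 (0.0725) or 3 (0.072), with a range of 0.00569 to 0.0787. MVK read 8.19, 8.19 and 8.22 in MTAP- cells against 8.55, 8.39 and 8.46 with inhibitor, with no overlap. It was 0.26 ± 0.09 higher (adjusted p = 0.0403) and passed in 6 of 18 alternatives, with a range of 0.0187 to 0.142. It was lost without MTAP- replicates 1 (0.0949), 2 (0.0766) or 3 (0.0762), inhibitor replicates 1 (0.142), 2 (0.059) or 3 (0.0994), or MTAP+ replicate 3 (0.0564).

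In all, 23 of the 32 genes changed in at least 1 comparison and 9 in none, the latter being ACACA, ACSL4, GGPS1, HSD17B7, INSIG2, NSDHL, SCAP, STARD4 and TMEM97. The share of all genes that changed in at least 1 comparison was not counted, so the 23 cannot be set against it. Taken singly, 19.1% of all genes changed between MTAP+ and MTAP- cells, 14.9% with inhibitor against MTAP+ cells and 37.3% with inhibitor against MTAP- cells. On the arrays, 22 of the 32 lay above the testing filter on all 9. SREBF1, ACSS2 and ACSL1 had a whole group below it, so their selection for testing depended on the groups where they were higher. The other members of the list are not described by values. MVD and TM7SF2 had no values, CYP51A1, FADS1 and ELOVL1 were measured only by probe sets shared with other genes, and FDFT1 and ACSL3 were not analysed here.

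Different probe sets of a gene mostly pointed the same way. Of 17 genes with several probe sets, all had the same sign in 14 for the inhibitor against MTAP+ cells, the exceptions being EBP, ELOVL6 and IDI1, and in 12 for MTAP+ against MTAP- cells, the exceptions being EBP, ELOVL5, IDI1, MVK and SREBF2. In that second comparison ELOVL5 (-0.17 and 0.00) and MVK (0.00 and -0.27) were counted as exceptions through a probe set that rounded to 0. They show no opposite signs. For the inhibitor against MTAP- cells all signs were the same in 14 of the 17 genes. The exceptions were EBP, NSDHL and SREBF2, the last through a probe set that rounded to 0. The other probe set of HMGCS1 gave 1.40 ± 0.16 with inhibitor (limma adjusted p over all probe sets = 0.00242). The 4 probe sets of SCD gave 0.70 to 0.91. ACACA, which did not pass by its brightest probe set, rose by 0.64 ± 0.09 with inhibitor on a dimmer one (adjusted p = 0.00449).

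SREBF2 and TMEM97 read differently by probe set when MTAP+ and MTAP- cells were compared. A second SREBF2 probe set gave 0.69 ± 0.13 (limma adjusted p over all probe sets = 0.00915), where the brightest gave -0.04 and the third -0.35. With inhibitor the 3 gave 1.09, 0.87 and 0.35. Of the 4 TMEM97 probe sets, a pair gave -0.89 ± 0.13 (adjusted p = 0.00206) and -0.85 ± 0.14 (adjusted p = 0.00394), against -0.47 for the brightest, and the average of all 4 gave -0.62 (adjusted p = 0.00124). INSIG1, at 0.18 by its brightest probe set, gave 0.60 ± 0.15 on another (adjusted p = 0.0269).

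**Figure D5:**
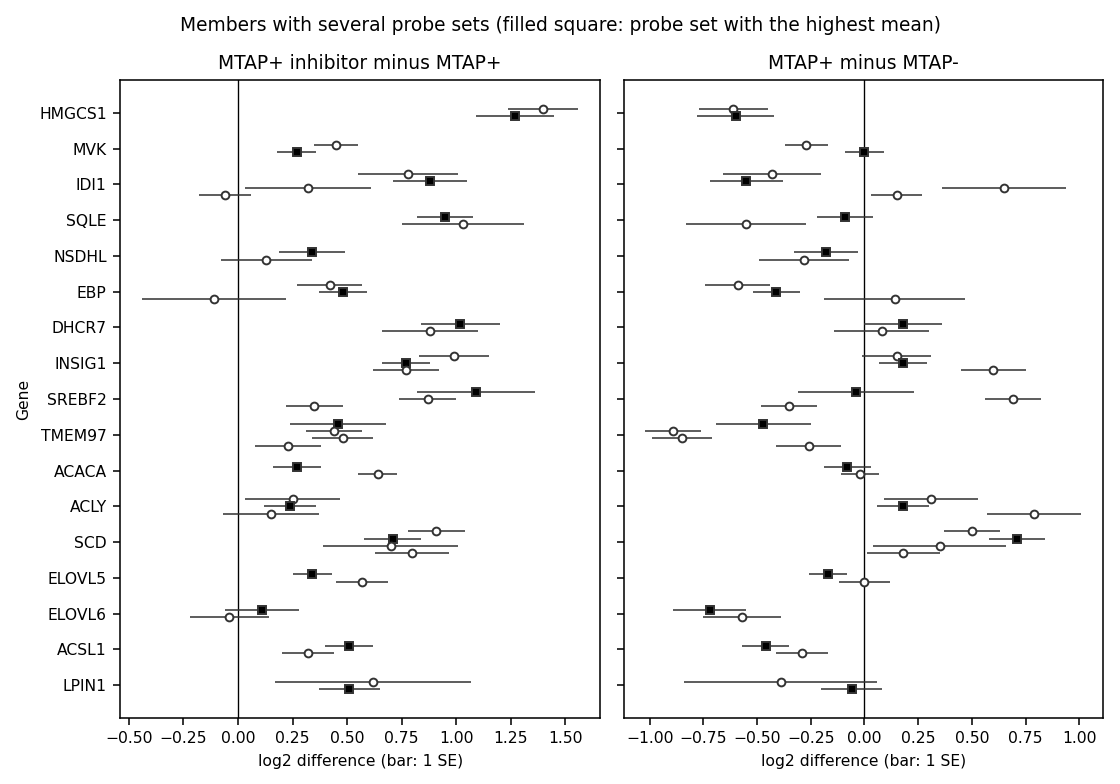
Log2 differences (points) with 1 SE (bars) for each probe set of the 17 genes with several, for the inhibitor minus MTAP+ cells (left) and MTAP+ minus MTAP- cells (right), with filled squares for the probe set of highest mean. The SCD, INSIG1 and HMGCS1 probe sets all lie above 0 on the left, while those of IDI1, EBP and SREBF2 lie on both sides of 0 on the right.

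Neighbouring lipid pathways were counted from separate lists. With inhibitor against MTAP+ cells, where 6.36% of all genes were higher and 8.50% lower, 2 of 10 genes of sterol uptake, efflux and storage were higher and 1 lower, and 0 of 16 genes of SREBP processing and sterol sensing changed (limma; 1 higher and 3 lower at an unadjusted p below 0.05). Of 9 genes of the isoprenoid branch, 0 were higher and 3 lower (1 and 3 unadjusted). Without inhibitor replicate 3 the 3 became 1, as ICMT (adjusted p = 0.053) and PDSS1 (0.055) lost their calls. In the uptake list, OSBP lost its call on leaving out inhibitor replicate 1 (0.0951), 2 (0.0757) or 3 (0.105) or MTAP+ replicate 2 (0.067). SOAT1 passed in 8 of 18 alternatives, with a range of 0.00729 to 0.115, and lost its call on leaving out inhibitor replicate 1 (0.0548), 2 (0.115) or 3 (0.114), MTAP+ replicate 1 (0.106) or 2 (0.0837), or MTAP- replicate 1 (0.0528). SOAT1 lay below the testing filter on every MTAP+ array (7.06 to 7.6) and every inhibitor array (6.74 to 7). PDSS1 lay below it on every inhibitor array (7.32 to 7.42). The selection of both for testing depended on the other groups. Of 16 other genes of fatty acid synthesis 1 was higher and 1 lower, and 0 changed among 12 genes of glycerolipid and phospholipid synthesis (0 higher and 2 lower unadjusted) and among 15 of fatty acid oxidation (2 and 1 unadjusted). With an array left out in turn, 0 to 2 changed in the SREBP processing list, 0 to 2 in other fatty acid synthesis, 0 in glycerolipid synthesis and 0 to 1 in fatty acid oxidation. NPC1, the lysosomal cholesterol exporter, was 11.33 ± 0.07 in MTAP- cells, 12.3 ± 0.17 in MTAP+ cells and 12.98 ± 0.1 with inhibitor (SD, n = 3). It rose by 0.69 with inhibitor (limma adjusted p = 0.00419). ZMPSTE24, which trims farnesylated proteins, was 9.67 ± 0.07 in MTAP+ cells and 8.96 ± 0.11 with inhibitor, a difference of -0.71 (limma adjusted p = 0.00221). Neither gene overlapped between these groups on any array.

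For MTAP+ against MTAP- cells, where 11.7% of all genes were higher and 7.36% lower, the uptake and efflux list had 4 higher and 1 lower of 10. The SREBP processing list had 2 and 2 of 16, other fatty acid synthesis 3 and 2 of 16, glycerolipid and phospholipid synthesis 1 and 1 of 12, and fatty acid oxidation 2 and 2 of 15. Leaving out an array in turn kept the uptake and efflux count at 4 and 1, and gave totals of 0 to 3 for SREBP processing, 1 to 5 for other fatty acid synthesis, 1 to 2 for glycerolipid synthesis, 0 to 6 for fatty acid oxidation and 1 to 2 for the isoprenoid list. The isoprenoid list had 0 higher and 2 lower of 9 (limma; also 0 and 2 at an unadjusted p below 0.05). NR1H3, the liver X receptor alpha, a sterol-sensing nuclear receptor that acts on SREBF1, was 6.69 ± 0.11 in MTAP- cells, 8.04 ± 0.51 in MTAP+ cells and 8.15 ± 0.06 with inhibitor (SD, n = 3). FABP5, a fatty acid carrier, was 11.33 ± 0.15, 10.34 ± 0.11 and 10.12 ± 0.1 in the same order. Both differed between MTAP+ and MTAP- cells under every alternative run, by 1.35 and -0.99. NR1H3 lay below the testing filter on every MTAP- array, from 6.57 to 6.76, so its selection for testing depended on the other groups. The same holds for SLC27A1, among the higher genes of other fatty acid synthesis, at 7.04 to 7.57 on the MTAP- arrays. SOAT1, the lower gene of the uptake and efflux list, lay above the filter only in MTAP- cells (8.11 to 8.33).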

How the data were processed

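Expression was measured on 9 Affymetrix arrays of 3 groups. The deposited values are log2 values that the authors made with RMA, per the submitters' processing notes; version and settings: not given in the sources used here. Such processing normalises arrays by quantiles, which reduces array-wide differences. Of 54675 probe sets, 17474 had values. The table had been filtered near a signal of 100, and every probe set with values reached log2 6.644 on at least 3 arrays. Probe sets dim on all arrays are therefore missing, while low values remain where another group was higher, as for MTAP in MTAP- cells. Probe sets were named by the platform annotation; 15485 with 1 gene were used, and each gene took its probe set with the highest mean. The filter was the 40th percentile on at least 3 arrays.

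All 9 arrays were fitted in limma 3.58.1 (R 4.3.3) with group as the factor and eBayes, and p-values were adjusted over 7011 genes by the Benjamini-Hochberg method. The median SE was 0.126, and the 3 arrays per group limit the precision. On simulated data for MTAP+ against MTAP- cells, 200 of 7011 genes were changed. The test found 30% of changes of 0.5, 87% of 1 and 98.5% of 2 (log2), with 5, 4 and 12 false calls. For that comparison in the data 1336 of 7010 genes were called, and recovery at such a share was not tested. There were 19 alternatives, 9 of which left out an array; not every gene has each. The members, lists and tests were chosen with earlier results of these data known. All tested members called in a comparison are described with array values; of other lists up to 3 changed genes per comparison could be named.

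Same-numbered arrays deviated together in the MTAP+ and inhibitor groups (correlations of 0.767, 0.597 and 0.353). Correlations were lower in the MTAP- and MTAP+ groups (0.381, 0.247 and 0.152) and in the MTAP- and inhibitor groups (0.315, 0.0243 and 0.0273). Arrays of different number gave -0.713 to 0.121. The labels give only replicate numbers, and whether these pair the arrays was not tested. The main fit does not use the numbers, whereas the replicate block does. Promoters and genome positions are from RefSeq (GRCh38.p14), with 36 of 40 members matched.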

Additional observations from a re-analysis of the deposited data

How the results depend on the processing

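Under the 19 alternatives, 559 of the values of the 32 genes for the inhibitor against MTAP+ cells kept their side of the threshold, 23 lost it and 17 gained it. For MTAP+ against MTAP- cells these were 543, 41 and 15, and for the inhibitor against MTAP- cells 552, 34 and 13. No called value changed sign. For MTAP+ against MTAP- cells the 8 changed members became 4 with the filter at the 60th percentile, 2 with the ACTB covariate and 4 with only the 2 groups fitted, and 4 to 8 when an array was left out. All genes changed numbered 1336, but 470 with the ACTB covariate, 2164 with array weights, 752 with only the 2 groups fitted and 745 to 1583 when an array was left out (876 and 745 without MTAP- replicates 2 and 3, 782 without MTAP+ replicate 3). For the inhibitor against MTAP+ cells 15 members became 9 to 15 when an array was left out. The 1042 genes became 1589 with the replicate block, 1832 with array weights and 372 to 1055 when an array was left out (667 without MTAP+ replicate 1, 627, 603 and 372 without inhibitor replicates 1, 2 and 3). For the inhibitor against MTAP- cells 18 members became 12 to 20 and 2613 genes 1844 to 2959. In that comparison, where the correlations of same-numbered arrays were mostly near 0, the block added HSD17B7 (limma adjusted p = 0.0297) and INSIG2 (0.048). INSIG2 also passed without MTAP+ replicate 1 (0.0319) or MTAP- replicate 2 (0.0496), as did STARD4 without MTAP+ replicate 1 (0.0414). The replicate block changed no other call of a member than those given with it. The causes of these shifts were not tested. Transcripts dim on all arrays are missing from the table, and 3 arrays a group limit what could be detected.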
